A study of Branchiostoma lanceolatum with 6 samples.

Results

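*Vent1* (BLAG03000909) and *Vent2* (BLAG03000910) are homeobox genes with neighbouring gene IDs in the European amphioxus *Branchiostoma lanceolatum*. They are 2 of the 27073 genes in a single-cell expression atlas of the neurula, and they were taken by these IDs, not by any measured value. Homeobox genes encode transcription factors (TFs). In *Xenopus* and zebrafish, TFs of the Vent family are switched on by BMP signalling on the ventral side of the embryo and repress dorsal organizer genes such as *goosecoid* and *chordin*. In amphioxus they are used as markers of ventral mesoderm. The study names *Vent1* and *Vent2* through their IDs, and its TF heatmap, labelled by gene phylogeny, gives both as NKX2-6 homeodomain genes.

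The atlas was made from wild-type embryos 21 hours post-fertilization (hpf), raised at 19 °C, that were dissociated and pooled before live single cells were sorted into plates for MARS-seq. In MARS-seq the 3′ ends of mRNAs are labelled with unique molecular identifiers (UMIs), so that UMI counts do not grow with gene length. The 2 scRNA-seq samples of the series (S1 and S2) cannot be told apart by cell name. All 14586 cells were thus treated as 1 pool without biological replicates, so no difference could be tested across samples and no p-value is given. The intervals in brackets are 95% intervals for counting error only, exact Poisson for levels and exact Clopper-Pearson for shares.

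The authors grouped the cells into 176 metacells, small groups of cells with alike profiles, and assigned these to 17 cell types. The cells hold a median of 1585 UMIs (range 138 to 14562) and come from 40 plates, which were treated as technical batches. All 23 markers checked were higher in the type they were listed for than in the other cells, but not all were highest there. *Brachyury2* was highest in tailbud, *Foxc* in muscular somites, and the 3 endoderm markers in endostyle. *Soxb1c* and *Neurogenin*, listed for neural cells, were highest in tailbud neural and HyTh neural cells. *Dlx* and *Klf1/2/4* were highest in anterior epidermis. The folds ranged from 7.84 to 60.4 for the 4 notochord markers, from 11.4 to 22.9 for the 3 tailbud markers and from 6.54 to 24.01 for the 3 markers of non-muscular somites, but only from 1.31 to 2.77 for the 4 epidermal markers in posterior epidermis.

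Both genes were highest in notochord, the axial mesoderm under the neural plate, and second highest in tailbud. Non-muscular somites came next for *Vent2*, and for *Vent1* they came next after the small type neural-like 2. *Vent1* had 8192 UMIs in 3277 cells (22.5%), or 2.58 UMIs per 10,000 UMIs of all genes (2.52–2.63). *Vent2* had 12351 UMIs in 4206 cells (28.8%), or 3.88 per 10,000 (3.82–3.95). At least 1 UMI of either gene was found in 5615 cells, and the highest counts in a single cell were 49 UMIs of *Vent1* and 78 of *Vent2*.

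In the 409 notochord cells *Vent1* stood at 11.4 UMIs per 10,000 (10.7–12.2) and *Vent2* at 16.3 (15.5–17.2). In the 279 tailbud cells the levels were 6.86 (6.20–7.57) and 11.4 (10.6–12.3). In the 666 cells of non-muscular somites they were 4.93 (4.65–5.22) and 9.61 (9.22–10.01). The *Vent2* intervals of these 3 types lay above those of all 14 other types and did not overlap each other. The *Vent1* intervals of tailbud and non-muscular somites did not overlap each other, but both overlapped the interval of the 110 cells called neural-like 2, at 5.03 (3.87–6.44).

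**Figure D1:**
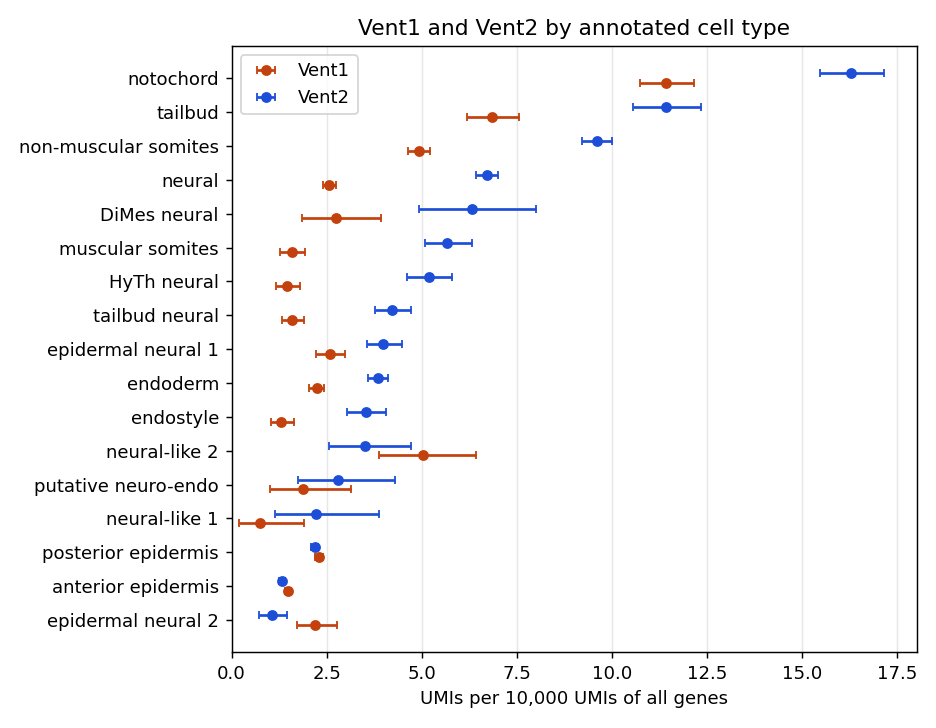
Level of *Vent1* (orange) and *Vent2* (blue) in the 17 cell types, as UMIs per 10,000 UMIs of all genes on a linear axis. Points are summed over all cells of a type and bars are exact Poisson 95% intervals, with the types ordered by *Vent2*. Notochord has the highest level of both genes, at 11.4 and 16.3, and *Vent2* stays above *Vent1* in most types except epidermis, epidermal neural 2 and neural-like 2.

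Below these types the order of the genes parted. *Vent2* came next in the 1243 neural cells, at 6.72 (6.44–7.005), where *Vent1* was at 2.57 (2.40–2.75). Muscular somites, which hold the myotome, had *Vent2* at 5.67 (5.08–6.31) and *Vent1* at 1.58 (1.28–1.94). HyTh neural cells had *Vent2* at 5.19 (4.63–5.80) and *Vent1* at 1.46 (1.17–1.80). *Vent2* was therefore spread over neural and muscle cells at levels at which *Vent1* was near or below its mean over the whole atlas.

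The lower end of *Vent2* lay in the outer tissue, with 2.19 (2.10–2.29) in posterior epidermis, 1.32 (1.24–1.40) in anterior epidermis and 1.05 (0.734–1.47) in epidermal neural 2. *Vent1* stood at 2.30 (2.20–2.40), 1.48 (1.40–1.56) and 2.20 (1.72–2.76) in the same 3 types. Its level of 2.24 (2.05–2.45) in endoderm overlapped the first and the last of these, but lay above that of anterior epidermis. Between neighbours in the order of levels, *Vent1* changed beyond the intervals at only 3 steps, below notochord, below non-muscular somites and below neural. *Vent2* did so at 4 steps, below notochord, tailbud, non-muscular somites and posterior epidermis, while all its neighbours from neural down to posterior epidermis overlapped.

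Set against all other cells, the levels in notochord were 4.92-fold for *Vent1* and 4.62-fold for *Vent2*, and 25.9% of the 2803 genes with at least 50 UMIs there reached a fold of 2. In tailbud the folds were 2.75 and 3.05, where 21.4% of 2275 genes reached a fold of 2. In non-muscular somites they were 2.07 and 2.81, where 26.8% of 5534 genes did. Both genes thus passed a fold of 2 in 3 types in which that is common. The share of genes with a higher fold was 6.31% for *Vent1* and 6.96% for *Vent2* in notochord, 9.85% and 8.35% in tailbud, and 24.5% and 9.87% in non-muscular somites.

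*Vent2* in neural cells (1.89-fold) and *Vent1* in neural-like 2 cells (1.96-fold) lay just under a fold of 2. When the reference was the level of all cells on the same plates, a setting chosen after seeing the data, the folds were 4.27 and 3.77 in notochord and 2.44 and 2.72 in tailbud. In non-muscular somites this gave 1.90 for *Vent1*, now under 2, and 2.42 for *Vent2*. This reference includes the cells of the type itself, which lowers a fold above 1 without any part of the plates. The fall below 2 is thus not read as a plate effect. For *Vent1* in neural-like 2 it gave 2.17, now past 2, on 63 UMIs.

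A UMI of *Vent1* was found in 52.8% of notochord cells (47.8–57.7) and one of *Vent2* in 63.1% (58.2–67.8), at a median depth of 1530 UMIs. The shares were 46.5% and 63.4% in non-muscular somites, at a median depth of 3002 UMIs, and 41.2% and 58.4% in tailbud at 1638. In posterior epidermis, at a median depth of 1246 UMIs, they were 17.2% and 18.7%, and in muscular somites, at 2182, they were 19.8% and 46.7%. The share of cells with a UMI grows with depth, so these shares are not compared between types.

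With every cell thinned to 500 UMIs and shallower cells left out, *Vent1* was found in 31.6% of 377 notochord cells, 19.1% of 272 tailbud cells, 19.5% of 652 non-muscular somite cells, 12.04% of 1213 neural cells and 9.003% of 5998 posterior epidermal cells. *Vent2* was found in 44.3%, 33.8%, 30.4%, 24.98% and 9.25% of the same cells, and in 18.4% of muscular somite cells against 6.70% for *Vent1*. Notochord kept the highest share of both genes at equal depth. No cell type can be taken to lack the Vent genes, so a background share was not fixed.

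The spread between cells was wide within each type. In notochord 193 of 409 cells had no *Vent1* UMI, 60 had 1, 86 had 2 to 4, 40 had 5 to 9 and 30 had 10 or more. For *Vent2* the corresponding numbers were 151, 50, 99, 73 and 36. In posterior epidermis only 11 of 6546 cells had 10 or more UMIs of *Vent1* and 4 had 10 or more of *Vent2*. The cells with 10 or more UMIs of *Vent2*, 193 in all, included 61 of non-muscular somites, 36 of notochord and 34 of neural cells.

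The metacells resolved this further. By the deposited fold change, which is relative to the median metacell, *Vent1* was at 2 or more in 16 metacells and *Vent2* in 25 of 176, with 12 metacells in common. Of the 21451 genes with such values, 2.17% reached a fold change of 2 in at least as many metacells as *Vent1*, and 1.22% in at least as many as *Vent2*. For *Vent2* these were 8 of 15 neural metacells, all 4 of notochord, 4 of 8 of non-muscular somites, 3 of 4 of tailbud, 3 of 11 of endoderm, and 1 each of HyTh neural, tailbud neural and posterior epidermis. For *Vent1* they were 3 neural, 3 non-muscular somite, 3 posterior epidermal, 2 notochord, 2 tailbud, 2 endodermal and 1 anterior epidermal metacell. The metacells were built from these same UMIs, so their levels are a description.

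The levels were uneven among the notochord metacells. Metacell 19 (97 cells) had the highest level of both genes among all 176, with *Vent1* at 23.6 (21.3–26.2) and *Vent2* at 34.9 (31.96–37.98), and the deposited fold changes were 7.46 and 10.2. Metacell 16 (133 cells) had 10.6 (9.75–11.5) and 13.7 (12.7–14.8). Metacell 18 (97 cells) had 4.85 (3.78–6.13) and 8.39 (6.96–10.03). Within notochord *Vent1* thus ranged over 10.8-fold and *Vent2* over 4.16-fold.

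Metacell 17 (82 cells), the shallowest of the 4 with a median of 576 UMIs, had *Vent1* at 2.18 (1.09–3.91) but *Vent2* at 10.3 (7.71–13.5). Its *Vent1* level rested on 11 UMIs, with an interval that included the level of all cells (2.58). Its *Vent2* interval overlapped those of metacells 16 and 18. Metacell 19 was also the highest of the 4 in *Id* (32.6), a gene of HLH proteins that are direct BMP targets in vertebrates, in *Gsc* (6.21), in *Mnx* (6.61) and in *Brachyury2* (10.6), the notochord TF gene. It was the lowest in *Chordin* (1.72), a BMP antagonist, close to metacell 17 (1.98), with up to 3.68 in metacell 18. It was the lowest also in *Smad1* (3.43), close to metacell 17 (3.97), with up to 9.33 in metacell 16. Metacell levels of genes other than *Vent1* and *Vent2* are given without intervals, so close ranks are not firm. Metacell 19 was the highest of the 4 also in 3 genes that the TF heatmap labels FOSL1 (30.7, against 6.55 to 13.2 in the others), JUN (36.4, against 8.73 to 18.9) and EGR1 (41.1, against 5.16 to 19.02). In vertebrates these are immediate early genes, which many stimuli switch on within minutes, cell dissociation among them. Their part in the levels of this metacell was not tested.

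**Figure D2:**
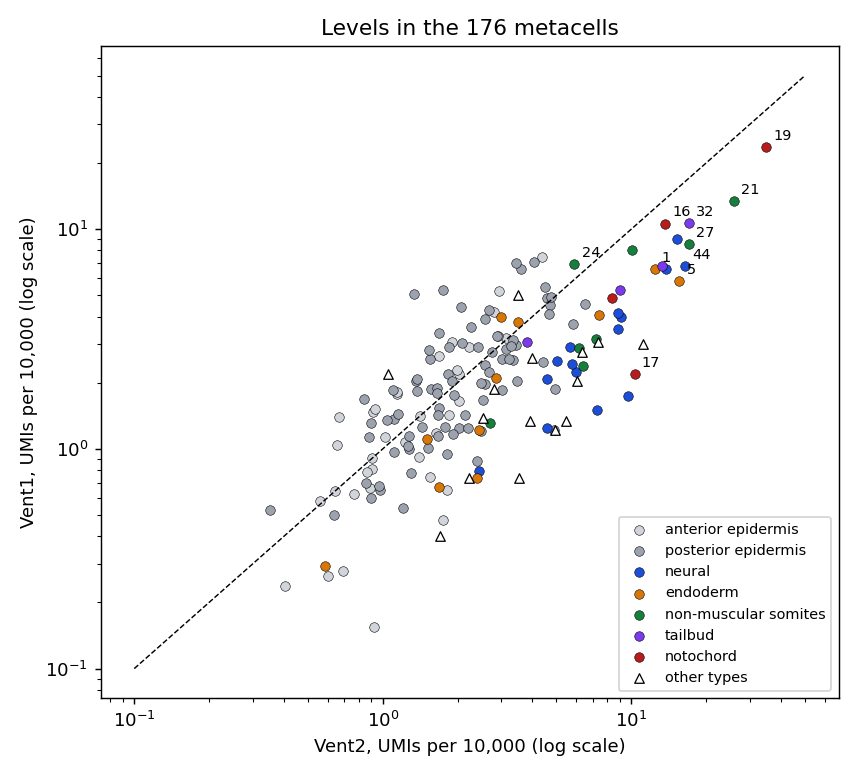
Level of *Vent1* against *Vent2* in the 176 metacells, as UMIs per 10,000 UMIs on log axes, coloured by cell type, with equal levels on the dashed line and 10 metacells numbered. Metacell 19 of notochord stands at the upper end with 23.6 and 34.9, and nearly all metacells of neural, endodermal and mesodermal types above a *Vent2* level of 5 lie below the line, while epidermal metacells lie on both sides.

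In non-muscular somites metacell 21 (89 cells) had *Vent1* at 13.4 (11.6–15.4) and *Vent2* at 25.9 (23.4–28.6), and metacell 27 (112 cells) had 8.56 (7.81–9.36) and 17.05 (15.98–18.2). The other 6 somite metacells had *Vent1* between 1.32 and 8.03 and *Vent2* between 2.71 and 10.1. The same 2 metacells had the highest levels of *Gremlin*, another BMP antagonist (2.43 in metacell 21 and 2.97 in 27), and of *Wnt16* (1.15 and 1.71). *Alx*, a homeobox gene of the ventral somite, was at 2.83 and 4.89, and *Gata1/2/3*, a zinc finger TF gene, at 7.35 and 17.3. Metacell 26, which carried *Gata1/2/3* at 8.02 and *Alx* at 2.58, had *Vent1* at only 2.38 (1.996–2.82) and *Vent2* at 6.36 (5.72–7.06), so the levels of these markers and of the Vent genes did not run in parallel over the somite metacells.

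At the other end of the somite cells, metacell 23 had the lowest levels of both genes, 1.32 (0.989–1.72) and 2.71 (2.23–3.26), with *Wnt1* at 15.9. Metacell 24, with the highest *Wnt1* of these 8 at 24.99, was the only somite metacell with more *Vent1* than *Vent2* (6.96 and 5.90). Its *Vent1* UMIs included 29 from a single cell. Its share of cells with a UMI was 38.7% for *Vent1* and 54.8% for *Vent2*.

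Among tailbud metacells, number 32 (57 cells) was highest with *Vent1* at 10.7 (9.21–12.3) and *Vent2* at 17.02 (15.1–19.1), and it was also the highest of the 4 in *Gsc* (12.6), *Brachyury2* (13.5), *Wnt1* (34.5) and both *Foxaa* genes, BLAG04001275 (5.64) and BLAG04001273 (6.04). Unlike notochord metacell 19, metacell 32 was the highest of its type in *Chordin* (1.27, with the lowest at 0.0511). It was the lowest in *Smad1* (5.23). Metacell 30 was the lowest in the Vent genes, with 3.05 (2.03–4.41) and 3.81 (2.65–5.30). The tailbud spread was 3.51-fold for *Vent1* and 4.47-fold for *Vent2*.

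Neural metacells ranged from 0.792 to 9.04 for *Vent1* and from 2.43 to 16.5 for *Vent2*. Metacells 44 (104 cells), 39 (50 cells) and 43 (40 cells) were the highest, with *Vent2* at 16.5 (14.4–18.8), 15.3 (11.9–19.3) and 13.8 (10.7–17.6). *Vent1* was at 6.78, 9.04 and 6.59 there. Metacell 55, the neural metacell with the highest *Chordin* (12.4) and *Gsc* (3.91), had *Vent1* at 2.50 (2.03–3.06) and *Vent2* at 5.01 (4.32–5.77). This was close to the neural mean of *Vent1* (2.57) and below that of *Vent2* (6.72). Metacell 50, with *Chordin* at only 0.821, was lower in both, at 0.792 and 2.43.

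In endoderm the same 3 of 11 metacells had the highest levels of both genes. For *Vent1*, metacells 7 (3.98, 2.55–5.92) and 11 (3.76, 2.54–5.37) overlapped the last of these, metacell 6. Metacell 1 (90 cells) had *Vent1* at 6.55 (5.74–7.46) and *Vent2* at 12.4 (11.3–13.6), metacell 5 (35 cells) had 5.79 (3.54–8.94) and 15.6 (11.7–20.4), and metacell 6 (67 cells) had 4.05 (3.03–5.29) and 7.41 (6.01–9.04). The lowest endodermal metacell, number 2, had 0.293 (0.171–0.470) and 0.587 (0.406–0.820), so that *Vent2* ranged over 26.6-fold within this type. Metacell 1 was also the highest endodermal metacell in *Gata1/2/3* (7.18) and *Brachyury2* (7.15), and metacell 5 in *Alx* (2.03), *Ripply* (2.32) and *Gremlin* (0.868). Metacell 5 held only 34556 UMIs of all genes, so its levels of these 3 genes rest on few UMIs. *Ripply* was close behind in metacell 9, at 2.03.

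Even in the metacells richest in Vent UMIs not every cell carried one. In somite metacell 21, 57.3% of cells had a *Vent1* UMI and 76.4% a *Vent2* UMI, where even expression at their depths would give 85.1% and 96.3%. In notochord metacell 19 the shares were 81.4% and 87.6%, against 93.4% and 97.4%. The cells of 1 metacell were therefore less even in both genes than their depth gives.

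The balance of the 2 genes differed between tissues. Over the atlas 39.9% of the 20543 Vent UMIs were *Vent1* (39.2–40.6). The share was 41.2% in notochord (39.3–43.2), 37.5% in tailbud (34.6–40.5), 36.8% in endoderm (34.2–39.4) and 33.9% in non-muscular somites (32.3–35.5). It was lower in neural cells, at 27.7% (26.1–29.3), and lowest in HyTh neural cells at 21.9% (17.9–26.3) and muscular somites at 21.8% (17.998–26.1).

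Epidermal cells stood at the other side with 51.8% (50.6–53), namely 52.8% (50.9–54.8) in anterior and 51.2% (49.7–52.7) in posterior epidermis, against 33.96% (33.2–34.8) in all other cells. The share of *Vent1* was higher in epidermis than outside it in 40 of 40 plates. The highest share, 67.6% (57.9–76.3), was that of the 99 cells of epidermal neural 2, on 108 Vent UMIs. Metacells with more *Vent1* than *Vent2* numbered 35 of 82 in posterior and 18 of 37 in anterior epidermis, against 0 of 15 in neural cells, 0 of 4 in notochord, 0 of 4 in tailbud, 1 of the 8 somite metacells above (number 24) and 2 of the 11 endodermal ones. The single metacells of epidermal neural 2 and neural-like 2 (58.9%) also held more *Vent1*.

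**Figure D3:**
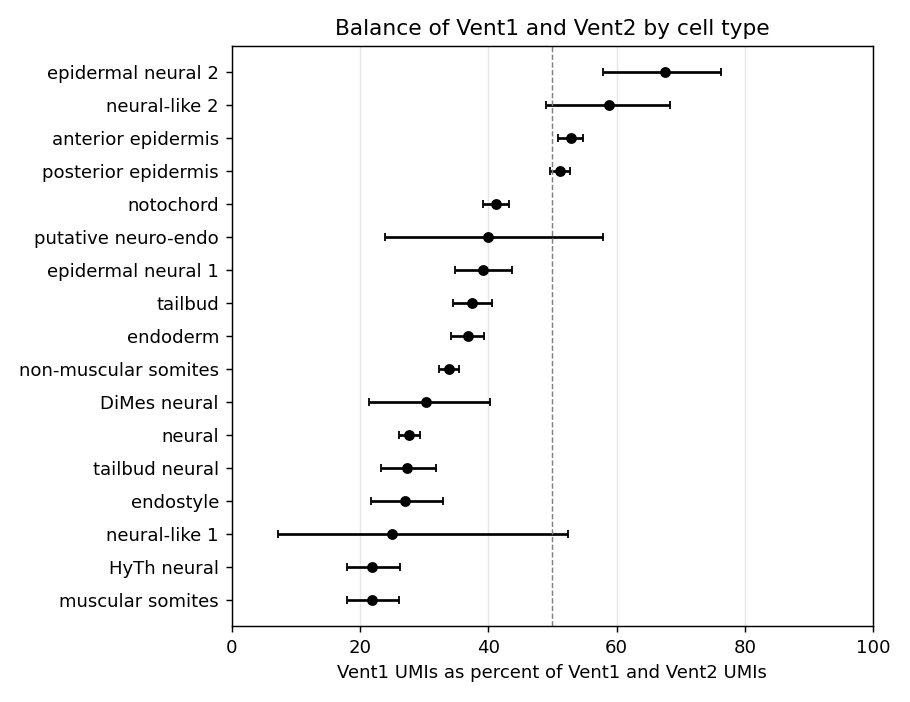
*Vent1* UMIs as a percent of the UMIs of *Vent1* and *Vent2* in each cell type, with exact 95% binomial intervals and a dashed line at equal numbers. Muscular somites and HyTh neural cells lie at 21.8% and 21.9%, non-muscular somites, endoderm, tailbud and notochord between 33.9% and 41.2%, and anterior and posterior epidermis at 52.8% and 51.2%.

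The genes are related neighbours, and the authors allowed reads to map to several places. How such reads were divided between *Vent1* and *Vent2* is not given in the sources used here, so the split between the genes carries an uncertainty beyond the intervals.

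*Vent1* and *Vent2* were found together in single cells more often than their separate frequencies give. Both were detected in 1868 cells, against 1236 expected from independent detection within 10 depth strata of each cell type, a ratio of 1.51 (1.44–1.58). Of the cells with *Vent1*, 57.003% had *Vent2*, and of those with *Vent2*, 44.4% had *Vent1*. The interval treats the expected number as fixed.

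The ratio was smaller in the types with high levels. It was 1.22 in notochord (186 cells observed and 153 expected, 1.05–1.40), 1.25 in tailbud (1.01–1.53), 1.22 in non-muscular somites (1.08–1.38) and 1.31 in neural cells (1.16–1.47). In notochord 86.1% of *Vent1* cells also had *Vent2*, so that little room was left above the expectation.

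The ratio was 1.88 in endoderm (1.56–2.24), 1.91 in anterior epidermis (1.68–2.16) and 2.002 in posterior epidermis (459 cells observed and 229 expected, 1.82–2.19). With plate and depth as strata the ratio was 1.37 over all cells, 1.12 in notochord and 1.84 in posterior epidermis, and with the metacell as stratum it was 1.42 over all cells. Strata by plate hold few cells, which can draw the ratio towards 1, and they also take up plate differences shared by both genes. The part of each was not tested. The highest ratio possible falls as detection becomes more frequent. The larger ratios in epidermis, where both genes are sparse, thus do not show a closer link than where both are frequent.

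**Figure D4:**
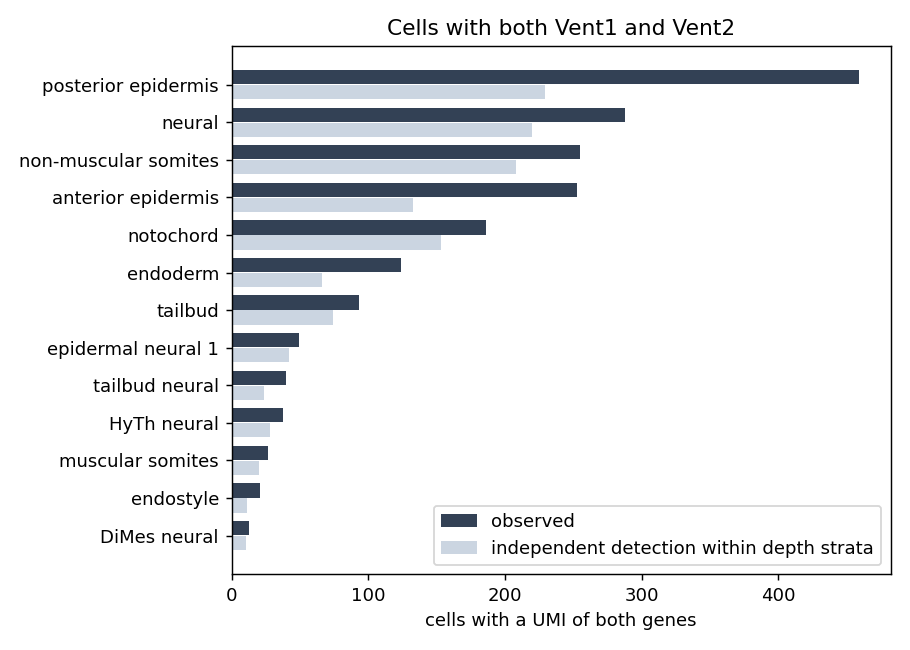
Cells in which both *Vent1* and *Vent2* were detected (dark bars) and the number that independent detection within depth strata of the type gives (light bars), for the 13 types with 10 or more expected cells. The observed number is higher in all 13, most of all in posterior epidermis with 459 against 229 cells. The interval of the ratio includes 1 in muscular somites, HyTh neural, DiMes neural and epidermal neural 1 cells.

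The 2 genes were then set beside 19 other genes of ventral somite, BMP and dorsoventral, axial, and tailbud and Wnt groups. Of those with at least 50 UMIs in the type, 8 of 11 reached a fold of 2 in notochord (median fold 3.98, against 1.41 for all genes with that many UMIs), 8 of 10 in tailbud (5.49 against 1.45) and 10 of 14 in non-muscular somites (5.01 against 1.499). The list was chosen for these tissues. The Vent genes, at 2.07- to 4.92-fold, were less confined to a type than the list gene with the highest fold there. That was *Mnx* in notochord (38.1-fold), *Wnt1* in tailbud (22.9-fold) and *Alx* in non-muscular somites (38.1-fold). A gene reaches 50 UMIs more easily in a type in which it is high, so these counts and medians lean upwards. The Vent genes are therefore not ranked against the list medians.

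Over all cells, the interval of the co-detection ratio lay above 1 for 10 of the 19 genes with *Vent1* and for 5 with *Vent2*, and below 1 for 0. The 5 shared ones were *Gata1/2/3* (1.26 with *Vent1* and 1.20 with *Vent2*), *Alx* (1.17 with each), *Ripply* (1.17 and 1.16), *Id* (1.17 and 1.13) and *Gata4/5/6* (1.33 and 1.24). With *Vent1* alone they were *Gremlin* (1.42), *Nanos* (1.18), *Mnx* (1.16), *Gsc* (1.12) and *Brachyury2* (1.10). All were below the 1.51 of the 2 Vent genes with each other, a ratio that shared reads between these neighbours leave uncertain. The share of all genes with such an interval was not computed, so these counts are not read as a trait of the list.

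In posterior epidermis 3 of 16 list genes with enough cells had intervals above 1, the same for each Vent gene. *Gata4/5/6*, a zinc finger TF gene, gave 1.49 with *Vent1* (1.33–1.67) and 1.43 with *Vent2* (1.28–1.60). *Gata1/2/3* gave 1.36 (1.15–1.61) and 1.41 (1.20–1.65), and *Id* 1.26 (1.16–1.36) and 1.19 (1.10–1.29). With plate and depth as strata the *Gata4/5/6* ratios were 1.41 and 1.38. The epidermal cells with Vent UMIs thus overlapped with those carrying these 3 genes more than depth strata give. How many of all genes do so was not computed, so the overlap is not read as particular to these genes.

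In non-muscular somites *Gremlin* was found with *Vent1* in 49 of its 56 cells, a ratio of 1.70 (1.26–2.25) that fell to 1.37 with plate as a stratum, and *Gata1/2/3* gave 1.17 (1.01–1.36) with *Vent1* and 1.13 (0.992–1.29) with *Vent2*. *Wnt1*, a tailbud ligand gene, was found less often with *Vent2*, at 0.742 (0.600–0.907), and with *Vent1* it gave 0.826 (0.652–1.03). In endoderm *Alx* gave 2.002 (1.19–3.16) with *Vent1*, on only 18 cells where 9 were expected, and 2.04 (1.33–2.99) with *Vent2*. There *Foxaa* BLAG04001275, an endodermal and axial TF gene, gave 0.727 (0.536–0.965) with *Vent1* and 0.927 (0.742–1.15) with *Vent2*.

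*Chordin* and *Gsc*, whose vertebrate counterparts Vent TFs repress, gave intervals that included 1 in the types in which they were read, although over all cells *Gsc* with *Vent1* lay above 1 (1.12, given above). In notochord *Chordin* gave 1.07 (0.850–1.33) with *Vent1* and 1.03 (0.827–1.26) with *Vent2*, and *Gsc* gave 1.05 with each (0.811–1.33 and 0.834–1.31). In endoderm *Gsc* gave 1.12 (0.912–1.37) and 1.09 (0.912–1.29). These intervals leave room for a ratio some way above or below 1.

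Over the 176 metacells, the gene most like *Vent1* among 6818 genes with at least 500 UMIs was *Vent2*, and the gene most like *Vent2* was *Vent1*, with a Pearson correlation of 0.757 on the log2 scale (pseudocount 0.1). The median correlation over the ranked genes was 0.0126 for *Vent1* and 0.129 for *Vent2*. Outside epidermis the correlation of the 2 genes was 0.835. These metacells share plates and one pool of embryos, and the correlations are given as a description. The part of reads shared between the 2 genes in their correlation was not tested.

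Next to *Vent1* came BLAG03000908, with 0.487, the immediate neighbour by ID, which the TF heatmap of the study labels LBX1. After it came *SF3B5*, a splicing factor gene (0.486), *Soxc* (0.459), *Id* (0.439), the ribosomal protein gene *RPL37A* (0.436), BLAG17000468 (0.430) and the Notch ligand gene *Delta* (0.418). The list for *Vent2* was led by the ribosomal protein gene *RPS24* (0.709), *RPL37A* (0.700), BLAG16000146 (0.698), BLAG07000268 (0.691), BLAG07001284 (0.691), *RPL27* (0.688) and *FKBP9* (0.687). BLAG03000908, at 0.656, ranked 37 for *Vent2*. The rank of BLAG03000908 moved with the setting. It was 2 for *Vent1* and 3 for *Vent2* outside epidermis, 20 and 169 by Spearman correlation, and 2 and 113 with a pseudocount of 1.

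BLAG03000908 had 781 UMIs in 500 cells and was highest in tailbud, at 1.37 UMIs per 10,000 (1.08–1.70), and in non-muscular somites, at 1.06 (0.937–1.20), with only 0.444 (0.316–0.607) in notochord. It was found with *Vent1* in 262 cells against 183 expected (1.43) and with *Vent2* in 339 against 261 (1.30). BLAG03000906 had 1217 UMIs and was highest in notochord, at 2.19 (1.89–2.52), but its ratios were 1.01 with *Vent1* and 1.03 with *Vent2*. The other gene IDs within 5 of the pair had between 3 and 198 UMIs, and BLAG03000914 has no row. Of these, BLAG03000904 gave a ratio of 1.44 with *Vent1* (69 cells against 47.8 expected) and 1.10 with *Vent2*, and BLAG03000907 gave 1.35 (73 against 54.2) and 1.04, so that the ratio of BLAG03000908 with *Vent1* was no higher than that of BLAG03000904.

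The levels of both genes also moved with the plate. Over the 40 plates *Vent1* in all cells ran from 0.811 through a median of 2.41 to 7.57 UMIs per 10,000, and *Vent2* from 1.32 through 3.60 to 12.5. Within posterior epidermis, the type with the most cells in the atlas, *Vent1* ran from 0.699 through 2.05 to 5.66 and *Vent2* from 0.852 through 2.10 to 4.67. The coefficient of variation was 0.520 for *Vent1*, with 5.18% of 2739 genes above it, and 0.399 for *Vent2*, with 14.9% above it, where the median gene had 0.265. Within this 1 cell type the plates were thus further apart in *Vent1* than in most of the genes measured.

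In neural cells *Vent2* was 21.0, 20.5 and 17.8 on plates 18, 19 and 20 in the order of the plate numbers, against a median of 6.10 over plates. Notochord ran from 3.27 to 62.5 for *Vent2* and from 0 to 36.6 for *Vent1*, but with few cells on a plate (5 on that with 62.5 and 13 on that with 36.6). Which plates belong to which of the samples S1 and S2 is not known here, and the part of the plate in these differences was not tested.

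**Figure D5:**
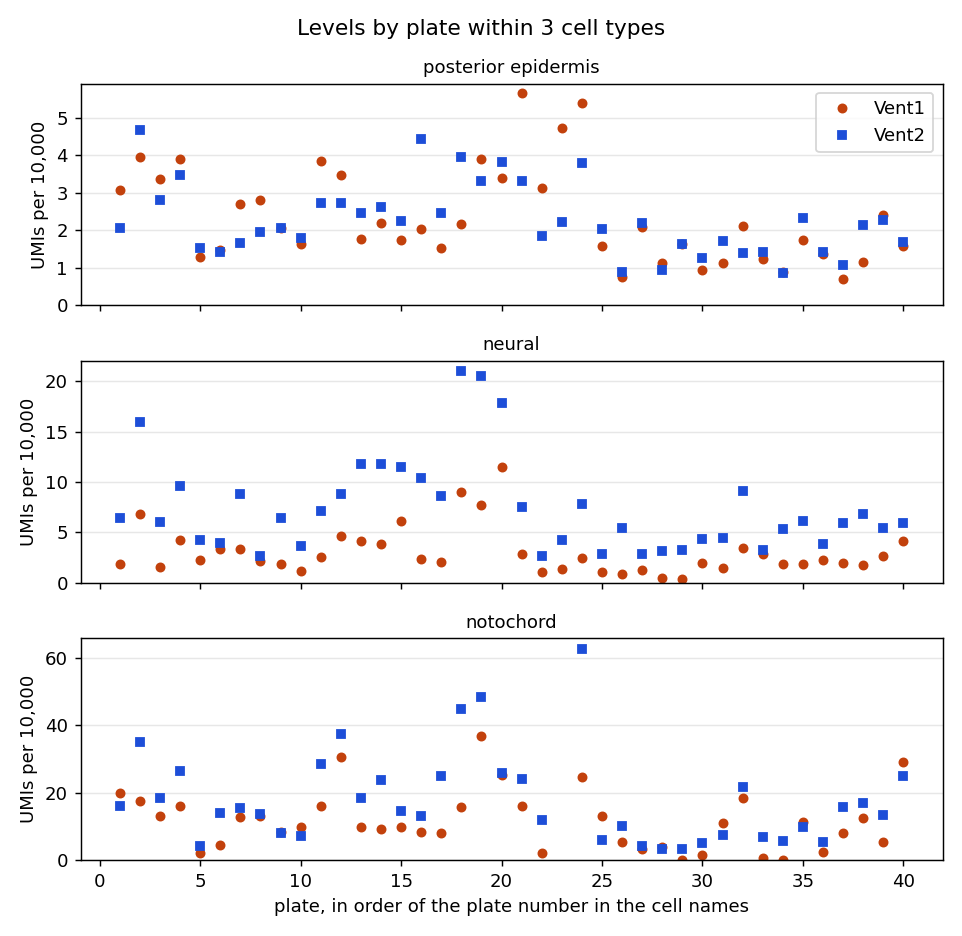
Level of *Vent1* (orange circles) and *Vent2* (blue squares) in posterior epidermis, neural and notochord cells of each plate, as UMIs per 10,000 UMIs, for plates with at least 2000 UMIs of the type, in the order of the plate numbers. The scales differ between panels. Posterior epidermis stays below 6 for both genes on all plates, while neural *Vent2* reaches 21.0 on plate 18 and notochord *Vent2* reaches 62.5 on plate 24, where it rests on 5 cells.

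Within plates the types were compared with posterior epidermis alone, not with each other. *Vent2* was higher than in posterior epidermis of the same plate in 39 of 39 plates for notochord, 40 of 40 for non-muscular somites, 40 of 40 for neural cells and 36 of 39 for tailbud. *Vent1* was higher in 35 of 39 for notochord, 34 of 40 for non-muscular somites, 33 of 39 for tailbud and 26 of 40 for neural cells. Muscular somites were above posterior epidermis in 29 of 38 plates for *Vent2* but in 8 of 38 for *Vent1*, and endoderm in 31 and 18 of 40.

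The plate levels of the Vent genes moved with those of the same genes labelled FOSL1, JUN and EGR1, a comparison added after the values had been seen. Over the 40 plates, within posterior epidermis, *Vent1* had a correlation of 0.838 with BLAG04000980 (labelled FOSL1), which ranked 1 of 2738 genes, 0.694 with BLAG13000961 (JUN, rank 7) and 0.671 with BLAG03001216 (EGR1, rank 9). It had 0.293 with BLAG04000978 (ATF3, rank 366) and -0.105 with BLAG04000977 (FOS), so 2 of the 5 genes looked at did not move with it. The correlation with the median depth of the plate was -0.112.

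For *Vent2* the correlations were 0.606 (FOSL1), 0.561 (JUN), 0.661 (EGR1), -0.0647 (ATF3) and 0.0569 (FOS), and with *Vent1* it had 0.758. Outside epidermis *Vent1* had 0.768, 0.754 and 0.700 with the first 3, -0.197 with ATF3 and -0.379 with FOS. There the 2 Vent genes had 0.933 with each other, and -0.457 and -0.539 with depth. The plates share 1 pool of embryos, and their order of sorting is not given in the sources used here.

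From cell to cell the link with these genes was small. Over all cells the co-detection ratio with *Vent1* was 1.03 for FOSL1 (0.992–1.07), 1.01 for JUN (0.977–1.05), 1.06 for EGR1 (1.02–1.10), 1.003 for ATF3 (0.960–1.05) and 0.824 for FOS (0.730–0.925). FOSL1, JUN and EGR1 were found in 11634, 13012 and 10736 of the 14586 cells, which leaves little room for a ratio above 1. Their ratios therefore do not show whether a link from cell to cell is small or large. For FOS the interval lay below 1. The part of cell handling in the plate levels of the Vent genes was not tested.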

How the data were processed

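The authors mapped MARS-seq reads with STAR, counted them over exonic intervals, filtered UMIs and deposited UMI counts per gene and cell, not normalized, for 14586 cells and 27073 genes (138 to 14562 UMIs per cell). A fold change per gene and metacell, deposited by the authors beside it, is a ratio: a regularized geometric mean over the median of all metacells. The annotation gives each cell's metacell and type, and the metacells were built from the same counts. No metacell held cells of more than 1 type. ATAC-seq samples were not used here.

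From the counts, levels were summed UMIs per 10,000, so that deeper cells weigh more. Folds are over all other cells, for genes with 50 or more UMIs in the type. Co-detection was compared with independent detection within depth strata. Plates were read from the number in the cell names (223 to 382 cells each). The authors gated out doublets by scatter, and 286 cells deeper than 4 times their type's median were kept. Because cells of S1 and S2 could not be told apart, no test was made.

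The members and gene lists were chosen with earlier results of these data known. Genes named are the members, the 8 most alike to each over metacells, IDs within 5 of them, 19 list genes, and 5 immediate early genes added later. Other names are those of the study's figures and tables. Intervals cover counting error only. The steps were tested on simulated data. Python 3.11.15, numpy 2.4.6, scipy 1.17.1, pandas 2.3.3 and matplotlib 3.10.9 were used.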

Additional observations from a re-analysis of the deposited data

How the results depend on the processing

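No paired analysis was possible because the cells carry no mark of sample S1 or S2 and no test was made. Of 45 alternatives to the main results, 32 stayed within a set limit and 13 moved further (7 lower and 6 higher). The limit was the counting interval for levels, shares and co-detection ratios, a factor of 1.5 for folds over other cells and for counts or percentages of genes or metacells, and 0.1 for the correlation. Of 163 alternatives for other single values, 103 stayed within these limits and 60 moved, 36 lower and 24 higher. In notochord, leaving out each plate in turn brought *Vent1* down to 10.7 UMIs per 10,000 at the lowest, and *Vent2* was 17.3 as a mean over cells and 17.9 as a mean over plates. Thinned to 500 UMIs, the shares of notochord cells were 31.6% and 44.3%. As a mean over plates the *Vent1* share of Vent UMIs was 39.03% in notochord and 49.6% in posterior epidermis, so that the side of equal numbers on which posterior epidermis lies depends on the weighting. The co-detection ratio was 1.42 within metacells, 1.86 for cells with 2 or more UMIs of each gene and 1.37 within plates. At a deposited fold change of 1.5 or more, 36 metacells passed for *Vent1*, 44 for *Vent2* and 23 for both. Of the 8 genes most like *Vent1* and the 8 most like *Vent2*, 5 and 5 remained with a pseudocount of 1, 4 and 5 by Spearman correlation, and 3 and 2 outside epidermis, while the 2 Vent genes stayed first for each other in all these settings. Means over plates, plate strata, the plate reference for folds and the likeness outside epidermis were chosen after seeing the data. Without a biological replicate, none of the intervals covers differences between embryos.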
